A study of Mus musculus with 36 samples.

Results

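The Ifi200 family is a cluster of mouse genes induced by interferon, and 6 of its genes were followed here in spleen RNA: Mndal, Ifi202b, Ifi203, Ifi204, Ifi205 and Aim2. They were taken by name, as every probe set of the array whose annotation lists at least 1 of them, which gave 12 of 45101 probe sets and 6 of the 19324 genes that the annotation names. Mndal and its relatives were chosen by their signal on these same arrays, because the mice fell into a high and a low set, so that pattern is described here without a test. The study measured 1 spleen per mouse on 36 arrays, from 18 mice with arthritis (ART) and 18 without (NON). All were F2 animals 4 months old, and the title of the series describes the arthritic mice as deficient for the interleukin 1 receptor antagonist, the natural blocker of interleukin 1 signalling. Parental strains, sex and the genotype of each mouse are not given in the sources used here. Per the design text RNA came from individual spleens, so p-values measure the spread between mice. That text opens with a total of animals lower than the sum of its groups, and the 36 labelled arrays were used.

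Proteins of this family carry a HIN domain that can bind DNA, and most also carry a pyrin domain for contacts with other proteins. Aim2 binds DNA in the cytosol and assembles an inflammasome with the adaptor Pycard, which activates caspase 1 and so the maturation of interleukin 1 beta. Ifi202b lacks the pyrin domain and is known to restrain Aim2, while Ifi203, Ifi204, Ifi205 and Mndal are best known as nuclear proteins that affect growth, differentiation and transcription. The genes lie side by side and are much alike, and their expression is known to differ between inbred strains of mice. In the RefSeq table (assembly GRCm38.p6) the order along chromosome 1 was Aim2, Ifi206, Ifi214, Ifi213, Ifi209, Ifi208, Ifi207, Ifi204, Mndal, Ifi211, Ifi203, Ifi202b and Ifi205.

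The start regions of Mndal and Ifi203 are shown because probe sets of these genes moved together over the mice, and that of Ifi202b because it did not follow them. Each is the stretch of 250 bases before the start of the gene in RefSeq, GRCm38.p6, minus strand, written 5′ to 3′. Capitals mark the letters of the core of the interferon-stimulated response element, searched as GAAANNGAAA on both strands; the core of the gamma-activated site, TTCNNNGAA, reads the same on either strand and was searched without capitals.
Mndal chr1:173880188-173880437: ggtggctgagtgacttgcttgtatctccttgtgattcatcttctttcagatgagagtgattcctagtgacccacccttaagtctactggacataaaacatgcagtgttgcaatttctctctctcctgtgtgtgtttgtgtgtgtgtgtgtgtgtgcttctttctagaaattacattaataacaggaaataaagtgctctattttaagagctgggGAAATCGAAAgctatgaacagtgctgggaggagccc
Ifi203 chr1:173942493-173942742: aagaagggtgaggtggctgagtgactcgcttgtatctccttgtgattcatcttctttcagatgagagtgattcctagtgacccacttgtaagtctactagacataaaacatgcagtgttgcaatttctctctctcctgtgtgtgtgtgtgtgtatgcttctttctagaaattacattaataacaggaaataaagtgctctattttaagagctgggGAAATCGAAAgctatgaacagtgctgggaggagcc
Ifi202b chr1:173982845-173983094: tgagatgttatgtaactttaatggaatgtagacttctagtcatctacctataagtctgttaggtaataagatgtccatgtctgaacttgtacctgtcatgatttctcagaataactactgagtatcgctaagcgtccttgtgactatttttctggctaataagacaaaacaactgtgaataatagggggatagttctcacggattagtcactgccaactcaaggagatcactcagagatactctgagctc

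RefSeq lists 2 starts for Mndal and 2 for Ifi203, and the pair of windows shown is the one most alike. These windows were identical at 233 of 239 aligned bases (97.5%), against 67.6% to 74.5% for the other pairs of Mndal and Ifi203 starts. The Mndal window and that of Ifi202b were identical at 149 of 213 (70.0%). Such likeness was not particular to this pair, with 99.6% for Ifi206 and Ifi208 and 99.1% for Ifi208 and Ifi213. Nor was the Ifi202b value unusual, since the Mndal window had between 63.8% (Aim2) and 75.7% (Ifi208) with the family windows other than Ifi203. The other Mndal window also held 1 match to GAAANNGAAA and the other Ifi203 window held 0. The first base of the GAAATCGAAA match lay at position -36 from the start of Mndal and at position -35 from that of Ifi203. The same letters, GAAATCGAAA, stood in the windows of Ifi206, Ifi207, Ifi208, Ifi213 and Ifi214, and GAAATTGAAA in those of Ifi205 and Ifi211. No match to this core was found in the windows of Ifi202b, Aim2 and Ifi209, and the Ifi202b window held 1 match to TTCNNNGAA. A window of Ifi204 was not available, so that gene was neither searched nor aligned. Over all RefSeq windows of this length, 978 of 32851 (2.98%) held GAAANNGAAA and 7.02% held TTCNNNGAA. A match describes the letters only, and no binding was measured.

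Levels are given as log2(intensity + 16) of the deposited array values, and a difference of 1 on this scale is a doubling of bright signals and less than the full change of dim ones. A probe set was tested for ART against NON where its mean reached 6.49, as did 27022 of 45037 that are not controls, and 11 of the 12 members passed. The probe set below that limit was 1425008_a_at, shared by Ifi203, the pseudogene Ifi203-ps and LOC100862473, with 4.33 to 7.67 over the 36 mice. Of the 12, 6 name 1 gene and 6 name several. Ifi205 is named by shared probe sets alone, and for those the genes cannot be told apart. Levels of different probe sets were not set against each other, since each has its own brightness.

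The spleens were RNA of whole organs, with well measured markers of T cells (3 tested, mean levels 10.05 to 11.47) and red pulp macrophages (5 tested, 11.12 to 13.41). In such samples fewer cells of a type and less RNA per cell cannot be told apart. The 4 tested pancreas markers had mean levels of at most 7.97 over all mice. Their highest levels in any mouse were 13.36 (Cela3b), 13.79 (Prss2), 13.63 (Zg16) and 13.36 (Cel). Whether pancreas tissue was taken along with some spleens was not tested. Array medians ran from 110.6 to 183.2 intensity units, and all pairs of arrays differed, with correlations of 0.886 to 0.974 over all probe sets. The labels give no batch. Clustering of the hybridisation controls, with the number of groups set to 3, gave the spike-in groups called A (9 ART and 4 NON), B (6 and 10) and C (3 and 4) below.

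Mndal separated the 36 mice into 26 with high and 10 with low signal, with no mouse between. On probe set 1426906_at, which names Mndal alone, the high set had 11.18, 12.19 and 13.14 as its lowest, median and highest level, and the low set had 4.04, 5.03 and 8.08. In intensity units the 10 low mice read 21.7 in ART 6, 0.402 in ART 11, 166 in ART 15 and 12.7 in ART 18, and 255 in NON 3, 0.428 in NON 7, 116 in NON 8, 2.14 in NON 13, 0.986 in NON 14 and 21.4 in NON 15. The other 26 lay between 2310 and 9030 intensity units, so the brightest low mouse was still far below the dimmest high one. The medians of the sets were 17 and 4650, a ratio of 273, which rests on a low set with 5 mice under 16 intensity units, where the array gives little more than a bound.

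The second Mndal probe set, 1452231_x_at, gave the same 10 and 26 mice. Its low set ran from 7.17 through a median of 7.64 to 8.72, and its high set from 11.89 through 12.64 to 13.43. The ratio of the median intensities was 34.8 here, smaller than on 1426906_at. Affymetrix adds the letter x to probe sets in which some probes can match other transcripts, and what a related gene adds to the low readings was not tested.

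**Figure D1:**
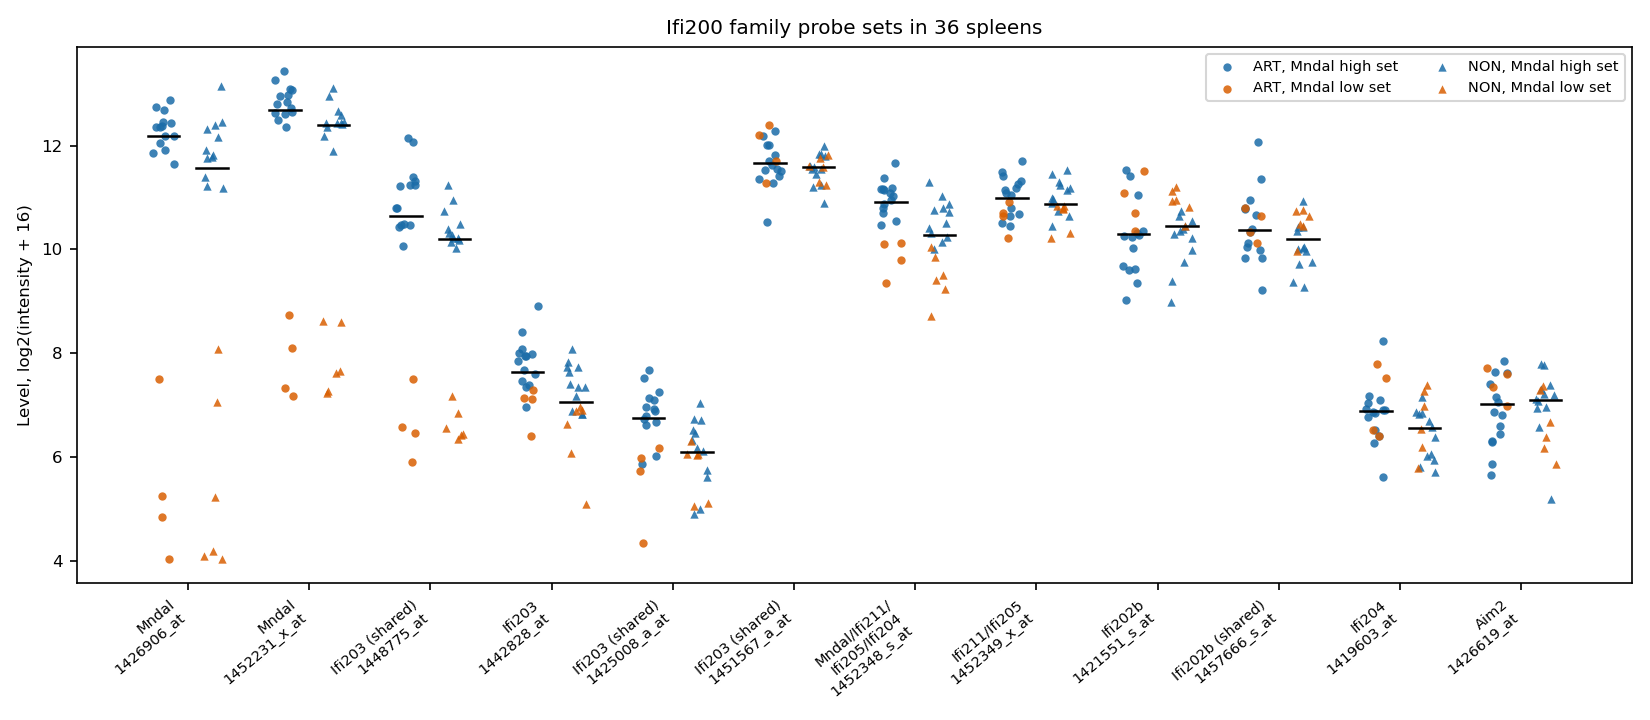
Level of each Ifi200 family probe set in every mouse, as log2(intensity + 16) on the vertical axis, with probe sets along the horizontal axis, ART as circles on the left and NON as triangles on the right of each, orange for the 10 mice of the Mndal low set, blue for the 26 of the high set, and black bars for group medians. The orange points lie far below the blue ones on both Mndal probe sets and on 1448775_at, and mix with them on the probe sets of Ifi204 and Aim2.

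A 3rd probe set, 1448775_at, shared by Ifi203, Ifi203-ps and LOC100862473, parted the very same mice. Ifi203 is the neighbour of Mndal but for Ifi211 in the RefSeq order. Low-set mice ran from 5.90 through a median of 6.50 to 7.50 and high-set mice from 10.03 through 10.49 to 12.14, a ratio of 19.0 between the median intensities of 1421 and 74.8. By the rule used here, a probe set parts the mice where the widest gap between neighbouring values, with at least 4 mice on each side, is 0.5 or more. The gaps were 3.16 and 3.10 on the Mndal probe sets and 2.54 on 1448775_at, so 3 of 11 members parted the mice, against 482 of 27022 tested probe sets (1.78%). These 3 probe sets were the ones among the 27022 whose gap divided the mice into exactly these 10 and 26, and the wider Mndal gap ranked 2 among all gaps. Just outside the rule lay 1425008_a_at with a gap of 0.50 that did not reach the limit, then Aim2 with 0.31 and 1452348_s_at with 0.30. Their gaps left 5, 4 and 5 mice on the low side. On 1425008_a_at these included NON 10 and NON 11, and on Aim2 ART 3, ART 10 and NON 4, which are Mndal high-set mice.

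The remaining Ifi203 probe sets did not follow in the same way. On 1442828_at, which names Ifi203 alone, the low set had 5.08, 6.90 and 7.29 as its lowest, median and highest level and the high set had 6.82, 7.65 and 8.91. All 10 low-set mice lay below the high-set median and 4 lay below the lowest high-set mouse, yet the sets overlapped and the ratio of median intensities was 1.79. On 1451567_a_at, shared with Ifi203-ps, LOC100862473 and LOC102641031, the low-set median was 11.66 (11.24 to 12.40) and the high-set median 11.57 (10.52 to 12.27), and the sets overlapped over most of their range. On 1425008_a_at, the dim one, the low-set median was 6.01 (4.33 to 6.31) and the high-set median 6.69 (4.90 to 7.67), a high-to-low ratio of median intensities of 1.80, with 0 of 10 low-set mice above the high-set median and the sets overlapping. Probe sets assigned to Ifi203 thus differed in how far they followed the sets of mice, and which transcripts each one reads was not tested.

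Probe set 1452348_s_at, which names Mndal together with Ifi211, Ifi205 and Ifi204, had a smaller drop in the same mice. Its low set ran from 8.72 through 9.65 to 10.12 and its high set from 10.02 through 10.84 to 11.66, so that 7 of 10 low-set mice lay below every high-set mouse. On 1452349_x_at, which names Ifi211 and Ifi205, the medians were 10.75 (10.21 to 10.90) in the low set and 11.12 (10.45 to 11.70) in the high set, a ratio of 1.30, and 3 of 10 low-set mice lay below the lowest high-set mouse. Ifi205 is thus seen here through probe sets in which the low-set mice tended to lie low and the sets overlapped.

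Ifi202b, whose product lacks the pyrin domain, tended to run the opposite way, less so on its shared probe set. On 1421551_s_at the low-set mice of Mndal had 10.34, 10.94 and 11.51 and the high-set mice 8.98, 10.27 and 11.52 as lowest, median and highest, a median 0.67 higher where Mndal was low. The ranges overlapped at the top, yet 9 of 10 low-set mice lay above the median of all 36 and 7 of the 10 mice with the highest Ifi202b were low-set mice. The shared Ifi202b probe set 1457666_s_at gave 10.56 (9.97 to 10.80) against 10.08 (9.21 to 12.07), a difference of 0.48 with the same direction. There 7 of 10 low-set mice lay above the median of all 36. Only 3 of the 10 highest mice were low-set mice, near the 27.8% that the low set makes up of all mice.

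Ifi204 and Aim2 had like levels in both sets. Ifi204, a nuclear protein also tied to the sensing of DNA, had a median of 6.75 (5.79 to 7.78) in the low set and 6.80 (5.61 to 8.23) in the high set. Aim2, the cytosolic DNA sensor, had 7.14 (5.85 to 7.72) and 7.07 (5.20 to 7.84). For both genes 5 of the 10 low-set mice lay above the high-set median.

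**Figure D2:**
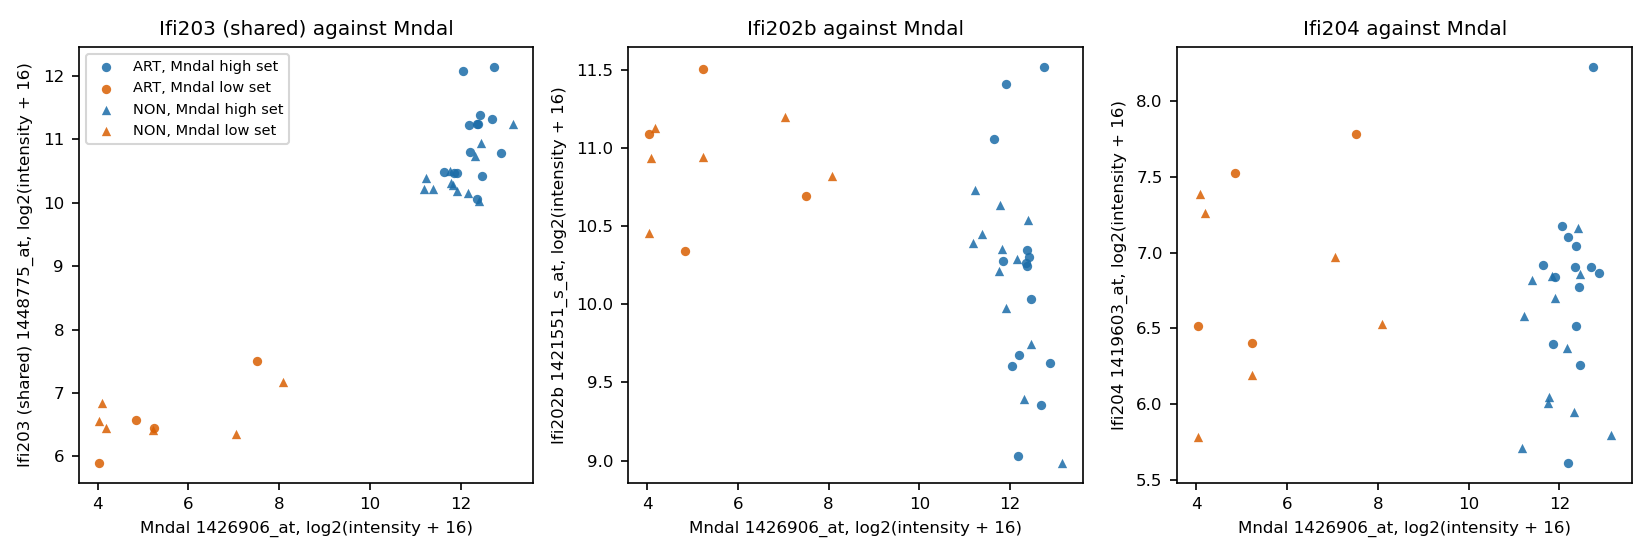
Levels of Ifi203 (shared probe set 1448775_at, left), Ifi202b (1421551_s_at, middle) and Ifi204 (1419603_at, right) against Mndal (1426906_at, horizontal axis), all as log2(intensity + 16), 1 point per mouse, circles for ART, triangles for NON, orange for the Mndal low set. The left plot shows separate clouds of 10 and 26 mice, the middle plot an orange cloud above 10.3 on Ifi202b, and the right plot both sets over the same Ifi204 range.

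The low set held 4 of 18 ART mice (22.2%) and 6 of 18 NON mice (33.3%). By spike-in group it held 1 of 13 arrays of A (7.69%), 8 of 16 of B (50.0%) and 1 of 7 of C (14.3%), so both sets occurred in every group but unequally; the part of the spike-in groups in this count was not tested. Among the high-set mice alone, the median of Mndal on 1426906_at was 12.05 in A, 12.38 in B and 11.94 in C. Over the same high-set mice it was 12.36 in 14 ART and 11.87 in 12 NON mice, with ranges of 11.64 to 12.88 and 11.18 to 13.14 that overlapped.

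Outside the family few probe sets followed the Mndal sets without overlap. Of 27022 tested probe sets, 6 (0.0222%) had all 10 low-set mice on one side of all 26 high-set mice, among them the 3 members already given, whose values defined or parted the sets. The others were Tmem63a (1423871_at, 8.60 to 9.05 in the low set and 9.23 or more in the high set), Parp1 (1443573_at, 4.57 to 7.11 and 7.30 to 9.62) and the unnamed 1419858_at (4.30 to 6.15 and 6.63 to 8.85). In each of them the low-set mice were also the lower ones, with far narrower gaps than Mndal. Parp1 was not among the 10 genes most like Mndal given below, where each gene is taken by its brightest probe set.

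Likeness to Mndal was measured as Pearson r with 1452231_x_at over the 36 mice, for genes with a tested probe set of their own. Since the mice fall into 2 sets, this r also reads the step between them, and r within the high and the low set follows each value. The highest was 0.87 for Tmem63a (0.55 and 0.58 within the sets), then 0.74 for the transcription factor Usf1 (0.53 and 0.18) and 0.67 for Nvl (0.54 and -0.42). Next came Hs1bp3 with 0.63 (-0.15 and 0.27), Bzw2 with 0.60 (0.0058 and 0.38), Lefty1 with 0.59 (0.14 and 0.010) and Hmga2-ps1 with 0.59 (0.47 and -0.036). Ncln with 0.58 (0.015 and -0.035), Cacna1e with 0.58 (0.29 and 0.51) and Mpzl1 with 0.57 (-0.18 and -0.24) completed the 10 highest. The 5 lowest were Lyplal1 with -0.66 (-0.54 and -0.45), Cnih4 with -0.64 (-0.048 and -0.12), the histone gene H3f3a with -0.64 (-0.57 and -0.35), Sde2 with -0.59 (-0.063 and -0.22) and Polr3f with -0.53 (0.026 and -0.093). For Hs1bp3, Mpzl1 and Polr3f the sign within the high set was opposite to that over all mice. The median size of r over 12427 genes was 0.138 and the 95th percentile 0.354.

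Of the 10 genes most like Mndal 7 lie on the chromosome of Mndal, as do 4 of the 5 most opposed, where 721 of 12374 matched tested genes (5.83%) do. Counted in protein-coding genes along that chromosome, Tmem63a stood 64, Nvl 67, Lefty1 63, Cnih4 68, H3f3a 59 and Sde2 60 genes after Mndal, and Usf1 stood at -55, before it. Farther off were Lyplal1 at 106, Mpzl1 at -121 and Cacna1e at -211. Those that stand near each other are not independent points. H3f3a differed most among the 5 opposed genes, with a median of 10.5 (9.23 to 11.17) in the low set and 9.63 (8.36 to 10.27) in the high set. Usf1 had 8.01 (6.93 to 8.63) and 8.98 (7.85 to 9.46).

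Genes most like the other members differed from those of Mndal. For Ifi202b they were Hsd11b1 (r 0.67), Wdr26 (0.62) and Npl (0.56), all on chromosome 1. For Ifi204 they were Trim30a (0.76), Irf9 (0.70), a component of the interferon-activated transcription complex, and Irgm1 (0.64), an interferon-induced GTPase. For Ifi203 on 1442828_at they were Bid (0.75), Insyn2a (0.74) and Wdfy1 (0.73, on chromosome 1). The median size of r of this probe set with all genes was higher, 0.215. Mycbp2 (0.58), Prdm9 (0.58) and Ikzf2 (0.57, on chromosome 1) came highest for the Ifi205 probe set, and Ccdc59 (0.64), Jade1 (0.62) and Cdh13 (0.61) for Aim2. Without the 2 mice farthest from the median of the member, r was 0.42 for Cdh13 and 0.49 for Irgm1. It lay between 0.52 and 0.75 for the other genes of this paragraph.

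Correlations among members are given as descriptions, since the members were chosen for them; the points share arrays and their scaling. Where a probe set parted the mice, r was taken within the sets. In each pair of members, the 2 farthest mice are those farthest from the median on the probe set of the lower number. Mice that stand far out on the other probe set alone stay in. The Mndal probe sets tracked each other with r 0.81 within the high set (26 mice, Spearman rho 0.80, 0.73 without the 2 farthest mice) and 0.88 within the low set (10 mice, rho 0.61, 0.77 without those farthest). Mndal on 1452231_x_at and the Ifi203 probe set 1448775_at had r 0.79 within the high set (rho 0.80, 0.82 without the 2 farthest). With the Mndal probe set 1426906_at in its place, r was 0.51 (rho 0.50, 0.48 without the 2 farthest). Within the low set 1452231_x_at and 1448775_at had r 0.62 with rho 0.36, and 0.09 without the 2 farthest mice, so it rested on those mice. With spike-in group means taken out over the high-set mice, the r of this pair was 0.83.

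Ifi202b on 1421551_s_at and Mndal on 1452231_x_at had r of -0.31 within the high set (rho -0.50, -0.57 without the 2 farthest) and -0.28 within the low set (rho -0.38, -0.010 without the 2 farthest). With Mndal on 1426906_at the r of 1421551_s_at was -0.42 within the high set (rho -0.44) and 0.013 within the low set (rho 0.067). The shared Ifi202b probe set 1457666_s_at had r 0.12 with 1452231_x_at (rho -0.11) and 0.0010 with 1426906_at (rho -0.028) within the high set. The negative r among high-set mice thus came from 1421551_s_at, with no such r on the shared probe set. The Ifi202b probe sets had r 0.78 with each other over 36 mice (rho 0.72, 0.72 without the 2 farthest).

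Ifi203 on 1442828_at and the 4-gene probe set 1452348_s_at had r 0.84 over 36 mice (rho 0.81, 0.82 without the 2 farthest), and 0.65 within the high set. Ifi204 had r 0.54 with the shared Ifi202b probe set (rho 0.43, 0.38 without the 2 farthest) and 0.29 with 1421551_s_at (rho 0.21, 0.14 without the 2 farthest). Aim2 had r 0.13 with Ifi204 (rho 0.20) and -0.11 with Ifi202b (rho -0.15) over the 36 mice.

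**Figure D3:**
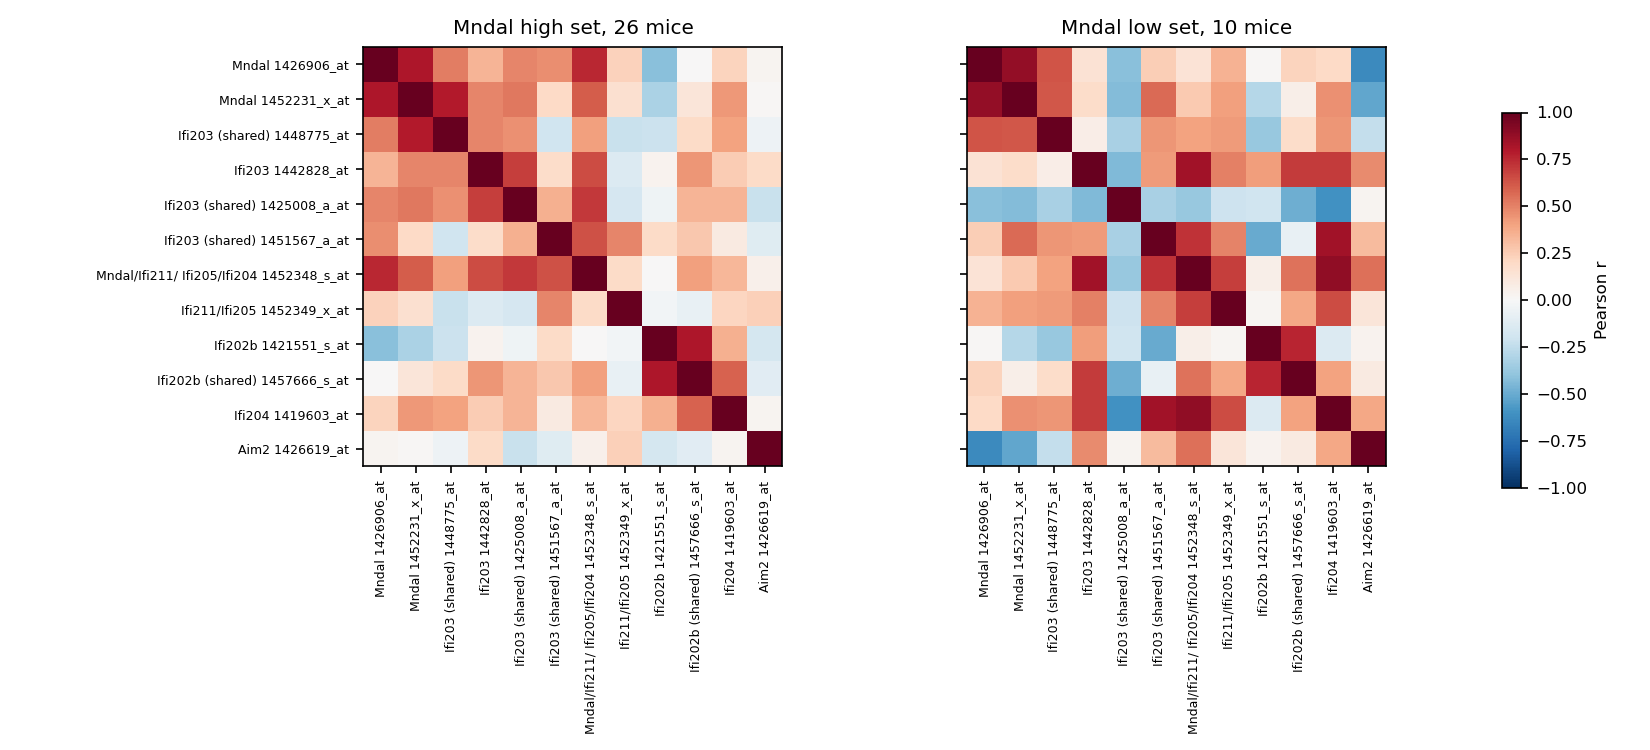
Pearson r between Ifi200 family probe sets, in colour from -1 (blue) to 1 (red), within the 26 mice of the Mndal high set (left) and the 10 of the low set (right), with the same order of probe sets on both axes. In the left panel the Mndal probe sets and 1448775_at form a red block (r 0.51 to 0.81) and the Ifi202b row is blue or pale against it; the right panel has 10 mice and its values are less certain.

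The family was set beside lists of interferon genes. A list score is the mean over its genes of the level minus the mean of that gene. With the score of 31 tested interferon-stimulated genes, none of them a member, the shared Ifi202b probe set had r 0.69 over the 36 mice (rho 0.51, 0.52 without the 2 farthest), Ifi204 0.54 (rho 0.39, 0.34) and Ifi202b on 1421551_s_at 0.43 (rho 0.35, 0.38). Ifi203 on 1442828_at had r 0.31 (rho 0.17, 0.27). Aim2 had -0.25 (rho -0.14, -0.34) and the Ifi205 probe set 1452349_x_at had -0.10. Within the Mndal high set, r with this score was 0.15 for 1426906_at, 0.42 for 1452231_x_at and 0.60 for 1448775_at. Within the low set it was 0.37, 0.39 and 0.0036 for the same probe sets. How far these within-set values rest on single mice was not tested. Of the cluster genes that are no members, 3 had a tested probe set of their own, Ifi207, Ifi209 and Ifi213, and Ifi204 had r 0.64 with their score (rho 0.60, 0.59 without the 2 farthest).

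ART mouse 3 took part in several of these relations. It had the highest level of all 36 mice on the Ifi204 probe set (8.23), on both Ifi202b probe sets (11.52 and 12.07) and on 1448775_at (12.14). It belongs to the Mndal high set and to spike-in group A.

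**Figure D4:**
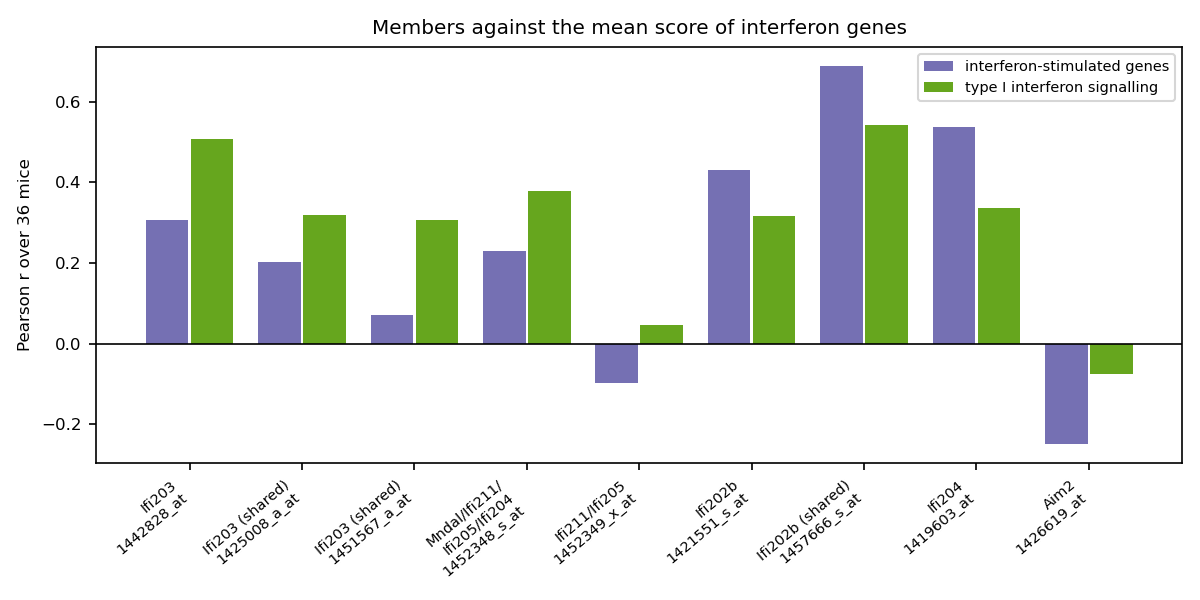
Pearson r over 36 mice (vertical axis) of 9 family probe sets (horizontal axis) with the mean score of interferon-stimulated genes (purple bars) and of type I interferon signalling genes (green bars); the 3 probe sets that part the mice are left out. The purple bars are tallest for the shared Ifi202b probe set (0.69) and Ifi204 (0.54), and below 0 for Aim2 (-0.25).

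Arthritic and non-arthritic spleens were then compared, the contrast the study was built on. The limma fit with Benjamini-Hochberg adjustment over 27022 probe sets called 0 of the 11 members, and 13 of all probe sets (0.0481%). At an unadjusted p under 0.05, 2 of 11 members were higher in ART, where 8.86% of all tested probe sets were, and 0 were lower, where 6.87% were. The rank-sum test called 0 members and had 4 of 11 at an unadjusted p under 0.05, where 15.4% of all tested probe sets were. The difference was positive in 10 of 11 members, beside 6142 of 12427 tested genes. The member probe sets stand for 6 genes, and several are shared or moved together, so they are not separate results.

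Mndal had a mean of 10.76 ± 3.03 (SD, n = 18) in ART and 9.79 ± 3.33 (SD, n = 18) in NON on 1426906_at, a difference of 0.97 with a 95% interval of -1.02 to 2.97 and an adjusted p of 0.648. ART mice had 4.04, 12.19 and 12.88 and NON mice 4.04, 11.57 and 13.14 as lowest, median and highest. The low-set mice made up the lower end of both groups, and the interval includes sizes in either direction. On 1452231_x_at the difference was 0.79 (95% interval -0.62 to 2.20, adjusted p 0.590). Spike-in groups A, B and C gave differences of -0.02, 2.05 and -2.43 on 1426906_at, and 0.04, 1.53 and -1.54 on 1452231_x_at. The direction was thus not the same in all of them. A and C each held 1 low-set mouse, ART 6 in A and ART 11 in C, while B held 8. A single ART mouse therefore weighs heavily in the differences of A and C, and its part was not tested.

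Ifi203 had the lowest unadjusted p of the members. On 1442828_at ART mice had 6.40, 7.63 and 8.91 and NON mice 5.08, 7.06 and 8.07 as lowest, median and highest, with 16 of 18 ART mice above the NON median. Means were 7.64 ± 0.58 (SD, n = 18) and 7.07 ± 0.70 (SD, n = 18), a difference of 0.56 (SE 0.21) with an unadjusted p of 0.0095 and an adjusted p of 0.181. Within A, B and C the difference was 0.20, 0.52 and 0.16. With the spike-in group as a block it was 0.34 with an adjusted p of 0.458. This probe set had r 0.53 with the score of 4 tested monocyte markers (rho 0.62), of which 2 were higher in ART at an unadjusted p under 0.05 and 0 passed adjustment. That score ran from -0.54 to 0.59 in ART and from -0.38 to 0.22 in NON. The probe set also had r 0.52 with the score of 5 dendritic cell markers (rho 0.57), which ran from -0.28 to 0.63 in ART and from -0.61 to 0.68 in NON. With 3 tested T cell markers it had r -0.48 (rho -0.63), and that score ran from -0.87 to 0.58 in ART and from -0.59 to 0.46 in NON, with 1 of the 3 lower in ART at an unadjusted p under 0.05 and 0 past adjustment. Scores of the other marker lists gave r of 0.41 (NK cell), 0.40 (red pulp macrophage), 0.29 (pancreas, rho 0.59), 0.08 (B cell), -0.04 (neutrophil) and -0.0048 (erythroid). The pancreas score ran from -1.21 to 5.56 in ART and from -1.49 to 6.15 in NON. Its highest value was 0.54 in the Mndal low set and 6.15 in the high set. For scale, the 95th percentile of the size of r of this probe set with 12427 genes was 0.523. The part of these markers in the difference was not tested. On the shared probe set 1448775_at the ART minus NON difference was 0.87 (SE 0.60, adjusted p 0.480), with 0.34, 1.11 and -0.75 in A, B and C. On 1451567_a_at it was 0.14 (SE 0.12, adjusted p 0.583).

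The 4-gene probe set 1452348_s_at had 10.75 ± 0.59 (SD, n = 18) in ART and 10.22 ± 0.68 (SD, n = 18) in NON, a difference of 0.53 (SE 0.20) with an unadjusted p of 0.0110 and an adjusted p of 0.189. Spike-in groups A, B and C gave 0.32, 0.72 and -0.11, and with the spike-in group as a block 0.41 (adjusted p 0.414). The low set of Mndal, which holds 9 of the 10 lowest mice on this probe set, has 4 ART and 6 NON mice, and its part in the difference was not tested.

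Ifi204 had 6.88 ± 0.59 (SD, n = 18) in ART and 6.50 ± 0.54 (SD, n = 18) in NON, a difference of 0.38 (SE 0.19, unadjusted p 0.0505, adjusted p 0.318). Its difference was positive in each spike-in group, 0.53 in A, 0.44 in B and 0.30 in C. Groups overlapped over most of their range, 5.61 to 8.23 in ART and 5.71 to 7.38 in NON.

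Ifi202b had 10.36 ± 0.74 (SD, n = 18) in ART and 10.40 ± 0.58 (SD, n = 18) in NON on 1421551_s_at, a difference of -0.05 with a 95% interval of -0.47 to 0.38 (adjusted p 0.939). On the shared probe set the difference was 0.27 (SE 0.18, adjusted p 0.451), 0.53 in A and -0.08 and -0.04 in B and C. For Ifi205, 1452349_x_at had a difference of 0.05 with an interval of -0.20 to 0.30 (adjusted p 0.875). Aim2 had 6.95 ± 0.65 (SD, n = 18) and 6.90 ± 0.67 (SD, n = 18), a difference of 0.05 with an interval of -0.38 to 0.48 (adjusted p 0.935).

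**Figure D5:**
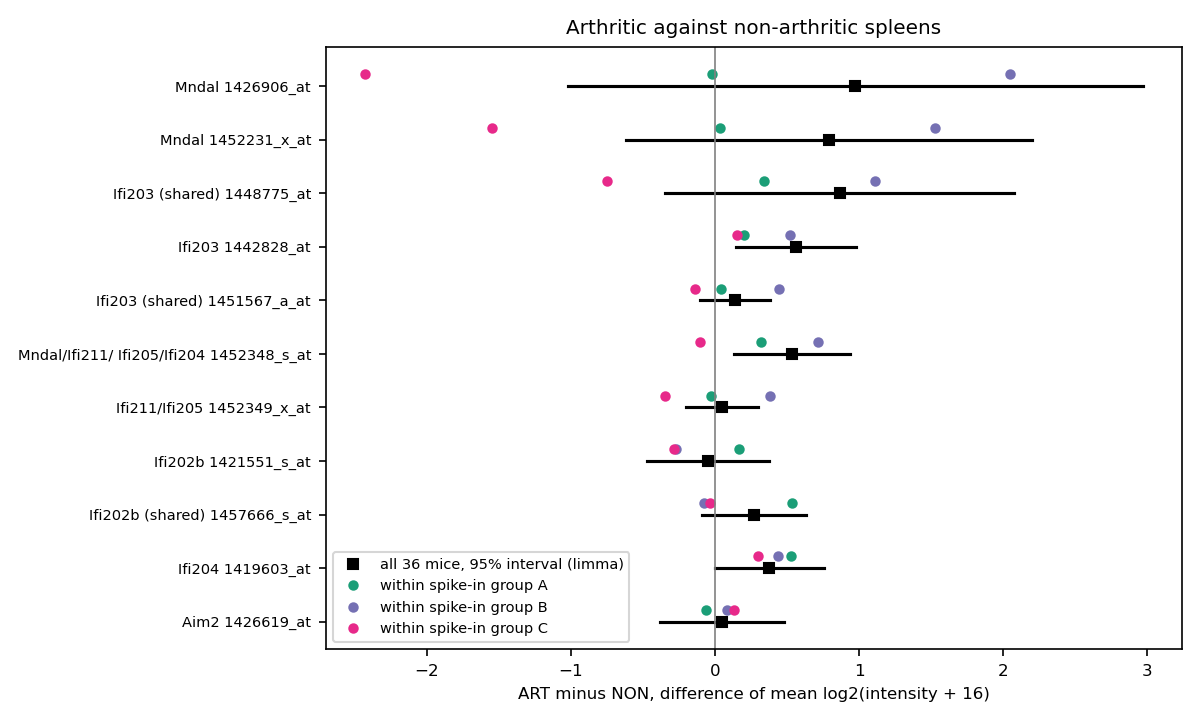
Difference of mean log2(intensity + 16), ART minus NON (horizontal axis), for the 11 tested family probe sets (vertical axis). Black squares with bars are the limma estimate over 36 mice with its 95% interval, and coloured points the difference within spike-in groups A, B and C. The Mndal intervals are the widest and span 0, the bars of 1442828_at and 1452348_s_at lie above 0 before adjustment, and the coloured points of Mndal fall on both sides of 0.

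Other genes of the pathway were read from lists that name them by function. Over 12427 tested genes, 6 were called in ART against NON, 988 were higher and 799 lower at an unadjusted p under 0.05, and the median difference was -0.00. None of the lists named here had a called gene by limma, and the rank-sum test called 0 of all probe sets. In the cluster itself, Ifi207 differed by 0.38 (SE 0.19, adjusted p 0.325), Ifi209 by 0.22 (SE 0.12, adjusted p 0.367) and Ifi213 by 0.12 (SE 0.22, adjusted p 0.820), all 3 with ART higher.

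Of 19 tested genes of the Aim2 inflammasome and DNA sensing, 7 were higher and 0 lower in ART at an unadjusted p under 0.05, with a median difference of 0.17. The lowest p values belonged to Ddx41, a helicase linked to DNA sensing (0.25, adjusted p 0.144), Casp8 (0.21, adjusted p 0.168), Casp1, the protease of the inflammasome (0.18, adjusted p 0.241), and Irf3 (0.15, adjusted p 0.261). Of 14 genes of type I interferon signalling, 4 were higher and 0 lower, with a median of 0.16. They were Stat2 (0.48, adjusted p 0.095), Irf9 (0.23, adjusted p 0.212), Irf7 (0.44, adjusted p 0.272) and Usp18, which damps the receptor signal (0.36, adjusted p 0.315).

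Among 31 interferon-stimulated genes 11 were higher and 0 lower at an unadjusted p under 0.05, 28 had a positive difference and the median was 0.21. The score of these genes ran from -0.34 to 1.35 (median 0.07) in ART and from -0.39 to 0.43 (median -0.11) in NON, so the groups overlapped. The genes were read in the same mice, so they are not separate results. Xaf1 had the largest of those named, 1.02 (SE 0.28, adjusted p 0.093), followed by Cxcl9, a chemokine induced by interferon gamma (0.51, adjusted p 0.101), Mx1, an antiviral GTPase (0.44, adjusted p 0.197), and Irgm1 (0.28, adjusted p 0.165). Of 28 genes near the Ifi200 cluster 4 were higher and 1 was lower, with a median of 0.03, among them Fcer1a (0.51, adjusted p 0.154), Fh1 (0.18, adjusted p 0.164), Ncstn (0.29, adjusted p 0.188) and Cd84 (0.31, adjusted p 0.224). Over all tested genes 6142 of 12427 had a positive difference, beside 28 of 31 interferon-stimulated genes and 10 of 11 member probe sets. The member count is of overlapping probe sets, while the other counts take each gene by its brightest probe set.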

How the data were processed

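Biotin-labelled total RNA of single spleens was hybridised to Affymetrix mouse arrays, per the labels, with 1 array per mouse and groups and numbers from the sample titles. The authors deposited linear microarray intensity values; the submitters' processing notes name MAS5, without a version. With 2% of probe sets trimmed at each end, the array means were all close to 500.002. Genes were named from the platform annotation and, for position, matched to RefSeq GRCm38.p6. Values were analysed as log2(intensity + 16); the 64 control probe sets and probe sets below the 40th percentile of the mean were left out of the tests. Groups were compared with limma 3.58.1 in R 4.3.3 (trend, two-sided, Benjamini-Hochberg, threshold 0.05), checked on data with known answers. Spike-in groups are Ward clusters (3) of the hybridisation controls, each array centred on its own mean of them; they come from the data, not from labels. Figures and correlations used Python 3.11.15, pandas 2.3.3, scipy 1.17.1 and matplotlib 3.10.9.

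Named genes are all member probe sets, the 10 genes most like and the 5 most opposed to the brightest Mndal probe set, the 3 most like each other member, and up to 4 genes of each list with the lowest unadjusted p. Other probe sets whose sets of mice do not overlap, and ART mouse 3, were named after their values were seen. The members and lists were chosen with earlier results of these data known, so no p is given for correlations or lists. Replicate numbers were checked for pairing: the deviations of same-numbered ART and NON arrays had correlations of -0.228 to 0.473, over 0.1 in 11 of 18 pairs, so the numbers were not taken to pair mice.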

Additional observations from a re-analysis of the deposited data

How the results depend on the processing

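The low set held the same 10 mice for the Mndal probe sets and for 1448775_at with a pseudocount of 1 or 64, with quantile normalization and with 2-means clustering in place of the gap, and 3 members parted the mice in each of the settings run on that count. No member was called in any setting: 0 of 11 with either pseudocount, no filter, quantile normalization, no variance trend, the rank-sum test, the spike-in group as a block or within a group, and without each mouse in turn. Over all tested probe sets the calls were 13 in the main setting and with a pseudocount of 1, 14 with 64, 1 after quantile normalization, and 0 with no filter (45037 tested), no trend, the rank-sum test, either spike-in block and within groups A and C. Within group B there were 738. With a replicate block, which treats same-numbered mice as pairs, 369 probe sets and 0 members were called; Ifi203 on 1442828_at kept its difference of 0.56 with an adjusted p of 0.140. Only 2 of 18 ART mice correlated best with the NON mouse of their own number, so the numbers remain labels.

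Of 99 member differences recomputed under settings other than leaving out a mouse or staying within a spike-in group, 97 kept direction and side of the threshold, and 390 of 396 did when each mouse was left out. The exceptions were differences of Aim2 and of Ifi202b on 1421551_s_at, with values near 0. Aim2 had -0.0685 in the rank-sum setting, where the difference is that of the group medians and not of the means. It had -0.0357 with a spike-in block from controls that were not centred (chosen after seeing the data). Leaving out a mouse gave -0.129 to 0.0325 for Ifi202b on 1421551_s_at, above 0 without ART 1 (0.0134), ART 12 (0.0325) or NON 8 (0.0015). For Aim2 it gave -0.0501 to 0.127, below 0 without ART 1 (-0.0020), NON 3 (-0.0115) or NON 4 (-0.0501). Within group A the sign turned for Ifi202b (0.17), Aim2 (-0.0618), Mndal on 1426906_at (-0.0179) and 1452349_x_at (-0.0278). Within B it turned for 1457666_s_at (-0.0751), and within C for that probe set (-0.0370), Mndal on 1426906_at (-2.43) and 1452231_x_at (-1.54), 1448775_at (-0.75), 1451567_a_at (-0.14), 1452348_s_at (-0.11) and 1452349_x_at (-0.34); C holds 3 ART and 4 NON mice. The r of Ifi203 (1442828_at) with 1452349_x_at was 0.35 over all mice and -0.13 within the Mndal high set. The only Mndal low-set mice of A and C were ART 6 and ART 11. The cause of the turns of sign was not tested. Leaving out 1 mouse moved the Mndal difference between 0.64 and 1.37 on 1426906_at and between 0.57 and 1.06 on 1452231_x_at, and the adjusted p of Ifi203 on 1442828_at between 0.0997 and 0.271.

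Precision is limited by 18 mice a group, by dim signal in the Mndal low set and on the Ifi204 and Aim2 probe sets, and by probe sets shared between near-identical genes.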
